A study of Mus musculus with 6 samples.

Results

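The 9 genes described here are Tmem176a, Tmem176b, Apba1, Cyp4f16, Cd300c, Steap4, Lrrc32, Plxdc1 and Reln, out of 22098 gene names in the table. They were chosen by their own values in these libraries: a strong difference from wild type in both ZnF4-/- libraries and little difference in ZnF1-/- libraries. Their levels are therefore a description and carry no test. The choice was made by gene name, with no numeric threshold, and where a name had several transcript rows the row with the highest mean stood for it. Relatives, partners and genomic neighbours of the 9 genes were not part of the choice and were tested. Their lists were drawn up with earlier results of these data known, so these tests are not independent of the data.

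The RNA came from bone marrow B cells with surface IgM, sorted from C57BL/6 mice aged 6 weeks. There were 2 libraries of Ikaros ZnF4-/- mice, which lack zinc finger 4, 2 of Ikaros ZnF1-/- mice, which lack zinc finger 1, and 2 of wild-type mice. The labels name no Cre and no restriction of either mutation to B cells. They do not say that the libraries of a genotype came from different animals, and p-values reflect the spread between libraries. Replicate 2 of each mutant carried Y-linked RNA and replicate 1 did not, so these 2 libraries did not come from the same mouse. Spread within a mutant thus includes any difference by sex, and that within wild type may be technical. Neither wild-type library carried Y-linked RNA, so any difference by sex also enters each comparison of a mutant with wild type. Values are RPKM (reads of a transcript scaled to its length and to the size of the library) in polyA-selected mRNA; the sequencing depth of the libraries is unknown.

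Ikaros, encoded by Ikzf1, is a DNA-binding regulator of lymphocyte development. Its N-terminal zinc fingers bind DNA around the core GGGAA, and the outer ones, fingers 1 and 4, shape which sites are bound, so the 2 mutants ask which genes depend on each outer finger. Ikzf1 had 287.3 and 244.0 RPKM in ZnF4-/-, 201.1 and 168.4 RPKM in ZnF1-/- and 176.5 and 178.6 RPKM in wild type, and neither mutant passed the test against wild type (adjusted p = 0.111 in ZnF4-/- and 0.940 in ZnF1-/-). The table has a single value per transcript, so the loss of a finger's exon cannot be seen in it. At 1 RPKM or more, 10025 to 10489 gene names were detected per library. Replicate 2 of both mutants carried Y-linked RNA and replicate 1 of both did not, nor did wild type, and ZnF1-/- replicate 2 held the most RNA of granulocyte markers. Summed RPKM of 11 B cell markers lay between 6007 and 7220 in all 6 libraries.

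Of the 9 genes, 5 were higher and 4 were lower in ZnF4-/- than in wild type, and the ZnF4-/- and wild-type libraries did not overlap for any of them. Among the 10322 genes with a mean of at least 1 RPKM, 50.4% did not overlap in that comparison and 3.2% were called, that is, passed an adjusted p of 0.05. Nothing is read from these shares for the 9 genes, because this contrast chose them. On the log2(RPKM + 0.5) scale the median difference from wild type was 3.53 in ZnF4-/- and 0.45 in ZnF1-/- for the 5 higher genes, and -2.41 and -0.34 for the 4 lower genes. The median over all tested genes was -0.02 in ZnF4-/- and 0 in ZnF1-/-. All 9 genes passed the filter on low values, but Apba1 and Cyp4f16 passed through ZnF4-/- alone: their means over the other 4 libraries were 0.525 and 0.9 RPKM. In these bulk samples fewer cells of a type and less RNA per cell cannot be told apart.

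**Figure D1:**
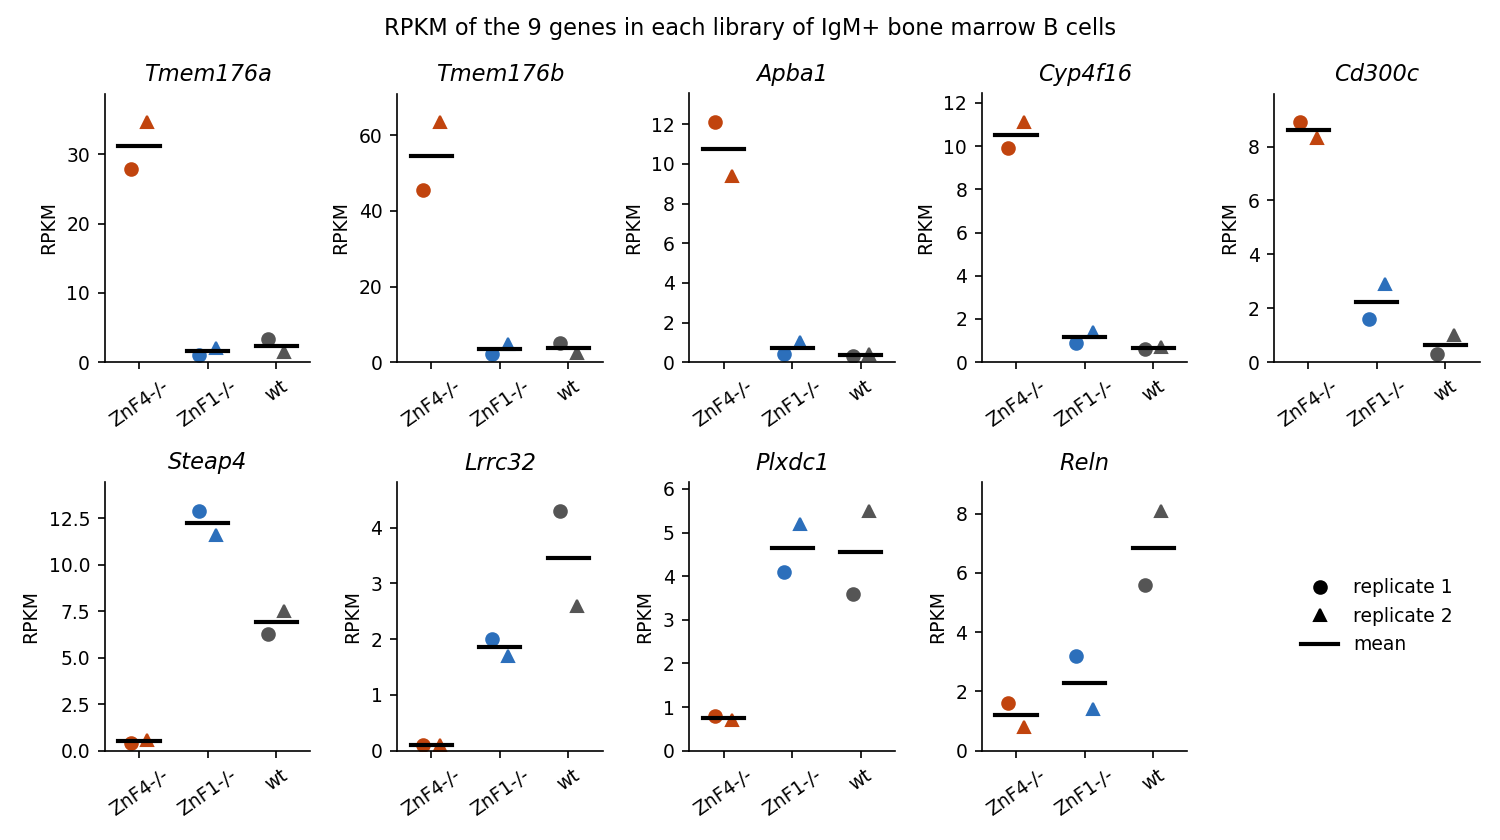
RPKM of each of the 9 genes (vertical axes from 0, a scale per gene) in the 2 ZnF4-/-, 2 ZnF1-/- and 2 wild-type libraries; symbols mark the replicates and lines the means. The top row is highest in ZnF4-/-, while in the bottom row Steap4, Lrrc32 and Plxdc1 are low in ZnF4-/- and Reln is low in both mutants.

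The label under which the 9 genes were grouped, a response mainly to the loss of finger 4, was met by most of them and not by Reln. The difference in ZnF1-/- was between -0.27 and 0.27 of that in ZnF4-/- for 7 of the 9 genes. It was 0.42 of it for Cd300c and 0.68 for Reln. In ZnF1-/- against wild type, 5 of the 9 genes did not overlap between the groups (Cyp4f16, Cd300c and Steap4 higher, Lrrc32 and Reln lower), against 41.5% of all tested genes. Steap4 differed from wild type in opposite directions in the mutants: it was lower than wild type in ZnF4-/- and higher in ZnF1-/-. The 2 wild-type libraries served both comparisons.

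Among the 5 higher genes, Tmem176b and Tmem176a had the highest levels in ZnF4-/-. They encode related membrane proteins with several membrane spans, distant relatives of the MS4A family that includes CD20, and are known for high expression in dendritic cells and other myeloid cells. Tmem176b had 45.4 and 63.4 RPKM in ZnF4-/-, 2.1 and 4.9 RPKM in ZnF1-/-, and 5.1 and 2.4 RPKM in wild type. The ZnF4-/- values lay far above the other 4 libraries, among which the ZnF1-/- and wild-type values overlapped. Tmem176a had 27.8 and 34.6 RPKM in ZnF4-/-, 1.0 and 2.1 RPKM in ZnF1-/-, and 3.4 and 1.4 RPKM in wild type, with the same order of groups. The means were 54.4 ± 12.7 RPKM in ZnF4-/- and 3.75 ± 1.91 in wild type for Tmem176b (SD, n = 2 each), a ratio of 14.5, and 31.2 ± 4.81 and 2.40 ± 1.41 RPKM for Tmem176a (SD, n = 2 each), a ratio of 13. On the log2 scale the differences from wild type in ZnF4-/- were 3.75 and 3.53. In ZnF4-/- libraries Tmem176b ranked above 91.1% of the tested genes, against 20.7% in wild type.

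The pair kept a narrow ratio although the levels spanned more than an order of magnitude. Tmem176b over Tmem176a was 1.63 and 1.83 in ZnF4-/-, 2.10 and 2.33 in ZnF1-/-, and 1.5 and 1.71 in wild type. The ratio was highest in ZnF1-/-, and whichever library of a genotype was higher for one gene was higher for the other. Other transcript rows of both genes stayed low: the 1264-base row of Tmem176b had 1.1 and 1.9 RPKM in ZnF4-/-, 0.0 and 0.1 in ZnF1-/-, and 0.0 and 0.2 in wild type, and the 1071-base row of Tmem176a had 0.1 and 0.2 RPKM in ZnF4-/- and was listed at 0 elsewhere.

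**Figure D2:**
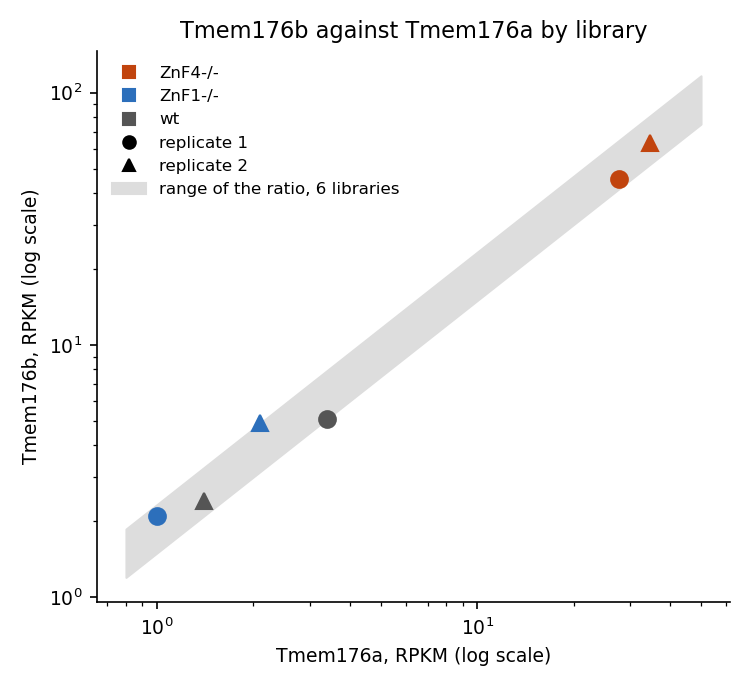
RPKM of Tmem176b against RPKM of Tmem176a, both on log axes, 1 point per library; the grey band spans the range of the ratio over the 6 libraries, 1.5 to 2.33. The 2 ZnF4-/- libraries sit far up the band, and the other 4 libraries sit near its lower end.

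The 2 genes lie head to head on chromosome 6, and their promoters are shown because the levels of the pair varied together. Each window runs from 250 bases before to 50 bases after a RefSeq start. The printed windows of the pair overlap by 208 bases, with their starts 109 bases apart, and other starts of the pair lay up to 668 bases apart. Windows were found for 7 of the 9 genes, 10 windows in all. The Ikaros core was searched as GGGAA on both strands. It was found in 7 of the 10 windows, those of 6 genes, against 62.7% of 32851 RefSeq mouse promoters of the same length. These windows are not independent: the 8 matches in the overlapping Tmem176a and Tmem176b windows lie at 4 distinct sites, 1 of which is shared by the printed windows of the pair. The longer form TGGGAA, each match of which is also a match of the core, was found in 3 windows (a second Tmem176a window, Steap4 and Reln), against 25.6% of all promoters. A match is a description of letters and no evidence of binding. The windows of Cyp4f16 and Steap4 are printed as an example of a higher and a lower gene; capitals mark GGGAA or its reverse complement TTCCC.
Tmem176a promoter, GRCm38.p6 chr6:48841233-48841532, plus strand: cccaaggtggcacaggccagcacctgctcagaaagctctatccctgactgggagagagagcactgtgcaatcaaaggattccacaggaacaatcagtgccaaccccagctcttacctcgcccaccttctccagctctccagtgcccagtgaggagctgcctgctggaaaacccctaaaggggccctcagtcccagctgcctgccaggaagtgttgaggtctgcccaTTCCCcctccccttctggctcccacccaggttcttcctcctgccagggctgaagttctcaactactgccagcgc
Tmem176b promoter, GRCm38.p6 chr6:48841325-48841624, minus strand: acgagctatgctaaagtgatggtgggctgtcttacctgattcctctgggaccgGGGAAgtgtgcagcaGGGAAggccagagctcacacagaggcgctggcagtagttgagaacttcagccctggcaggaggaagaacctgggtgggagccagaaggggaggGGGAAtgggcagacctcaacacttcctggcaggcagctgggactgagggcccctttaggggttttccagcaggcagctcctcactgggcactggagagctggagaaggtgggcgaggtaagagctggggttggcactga
Cyp4f16 promoter, GRCm38.p6 chr17:32536307-32536606, plus strand: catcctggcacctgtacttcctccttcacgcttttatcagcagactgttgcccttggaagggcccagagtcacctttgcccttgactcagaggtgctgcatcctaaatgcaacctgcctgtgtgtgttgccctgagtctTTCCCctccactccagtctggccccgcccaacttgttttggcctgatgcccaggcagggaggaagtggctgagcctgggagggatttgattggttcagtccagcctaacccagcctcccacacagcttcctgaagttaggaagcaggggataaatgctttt
Steap4 promoter, GRCm38.p6 chr5:7960222-7960521, plus strand: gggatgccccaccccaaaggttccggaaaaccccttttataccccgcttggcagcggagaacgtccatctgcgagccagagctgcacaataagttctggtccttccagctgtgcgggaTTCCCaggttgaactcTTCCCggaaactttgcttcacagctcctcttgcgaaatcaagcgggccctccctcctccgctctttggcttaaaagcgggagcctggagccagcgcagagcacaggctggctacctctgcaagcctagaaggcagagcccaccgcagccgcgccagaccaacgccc
The Tmem176a window printed, 1 of 2, held 1 match, and the other held 4. The Tmem176b window printed, 1 of 3, held 3 matches, and the others held 0. That of Cyp4f16 held 1, and that of Steap4 held 2, of which 1 was TGGGAA. The single Cd300c window held 1 match and that of Reln 2, while that of Apba1, with a GC content of 82.0%, held 0.

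Apba1 encodes Mint1, a neuronal adaptor that binds the amyloid precursor protein and the exocytosis protein Munc18-1. It had 12.1 and 9.4 RPKM in ZnF4-/-, 0.4 and 1.0 RPKM in ZnF1-/-, and 0.3 and 0.4 RPKM in wild type. The gene was thus near the bottom of the tested genes in 4 libraries (above 0.397% of them in wild type) and in mid-range in ZnF4-/- (above 46.0%). Because it passed the filter on low values only through ZnF4-/-, nothing is read from its low rank elsewhere. The mean was 10.75 ± 1.91 RPKM in ZnF4-/- and 0.35 ± 0.0707 in wild type (SD, n = 2 each), a ratio of 30.7, and the log2 difference was 3.72. The ratio rests on wild-type values only a few steps above 0, since the deposited values come in steps of 0.1 RPKM.

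Cyp4f16 is a cytochrome P450 of the 4F family, whose members hydroxylate fatty acids and leukotrienes. It had 9.9 and 11.1 RPKM in ZnF4-/-, 0.9 and 1.4 RPKM in ZnF1-/-, and 0.6 and 0.7 RPKM in wild type. Both ZnF1-/- values lay above both wild-type values, by far less than those of ZnF4-/-. The log2 difference from wild type was 3.26 in ZnF4-/- and 0.51 in ZnF1-/-.

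Cd300c belongs to a family of immunoglobulin-like receptors carried mostly by myeloid cells. It had 8.9 and 8.3 RPKM in ZnF4-/-, 1.6 and 2.9 RPKM in ZnF1-/-, and 0.3 and 1.0 RPKM in wild type. The 3 groups stood apart in steps, with ZnF1-/- between the others. The log2 difference from wild type was 3.05 in ZnF4-/- and 1.29 in ZnF1-/-, the largest difference in ZnF1-/- among the 5 higher genes.

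**Figure D3:**
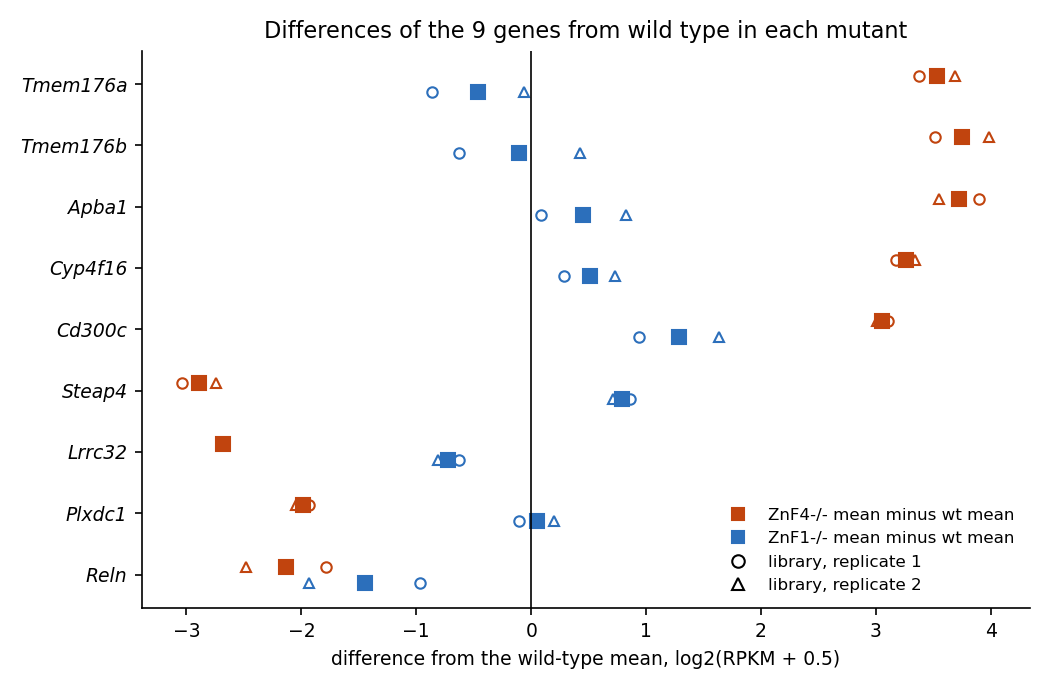
Difference from the wild-type mean on the log2(RPKM + 0.5) scale for the 9 genes; filled squares are genotype means and open symbols single libraries, with ZnF4-/- above ZnF1-/- in each row. Reln is the gene whose ZnF1-/- square (-1.45) stands closest to its ZnF4-/- square (-2.13), and the squares of Steap4 lie on opposite sides of 0.

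Among the 4 lower genes, Steap4 encodes a metalloreductase that reduces iron and copper at membranes. Steap4 had 0.4 and 0.6 RPKM in ZnF4-/-, 12.9 and 11.6 RPKM in ZnF1-/-, and 6.3 and 7.5 RPKM in wild type. No 2 groups overlapped. The mean was 0.50 ± 0.141 RPKM in ZnF4-/- and 6.90 ± 0.849 in wild type (SD, n = 2 each), 13.8-fold lower in ZnF4-/-, and the log2 difference was -2.89 in ZnF4-/- and 0.79 in ZnF1-/-. Between the mutants the log2 difference was -3.68.

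Lrrc32 encodes GARP, which holds latent TGF-beta at the surface of regulatory T cells and platelets. It had 0.1 and 0.1 RPKM in ZnF4-/-, 2.0 and 1.7 RPKM in ZnF1-/-, and 4.3 and 2.6 RPKM in wild type. ZnF1-/- lay between the others, below wild type without overlap. The log2 difference from wild type was -2.68 in ZnF4-/- and -0.72 in ZnF1-/-. The ZnF4-/- values were a single rounding step above 0, so the ratio of means, 34.5-fold lower in ZnF4-/-, is imprecise.

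Plxdc1 encodes a membrane protein known as tumour endothelial marker 7 and as a receptor of the secreted factor PEDF. It had 0.8 and 0.7 RPKM in ZnF4-/-, 4.1 and 5.2 RPKM in ZnF1-/-, and 3.6 and 5.5 RPKM in wild type. The ZnF1-/- values fell inside the wild-type range. The log2 difference was -1.99 in ZnF4-/- and 0.05 in ZnF1-/-, and a second row of the gene stayed at or below 0.2 RPKM in every library.

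Reln encodes reelin, a large secreted glycoprotein that guides neurons through lipoprotein receptors. It had 1.6 and 0.8 RPKM in ZnF4-/-, 3.2 and 1.4 RPKM in ZnF1-/-, and 5.6 and 8.1 RPKM in wild type. Both mutants were below wild type without overlap, and they overlapped each other. The log2 difference from wild type was -2.13 in ZnF4-/- and -1.45 in ZnF1-/-, and -0.68 between the mutants, the smallest difference between the mutants among the 9 genes.

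The 9 genes stood among the largest differences of the comparison, which the choice fixed. Counted from the highest log2 difference in ZnF4-/- against wild type, Tmem176b was number 4, Apba1 5, Tmem176a 6, Cyp4f16 9 and Cd300c 11 of 10322 genes. From the lowest, Steap4 was number 4, Lrrc32 6, Reln 15 and Plxdc1 17. With bounds set after the values were seen, 44 genes were at least 2 higher on the log2 scale without overlap, and 27 of them differed by less than 1 in ZnF1-/-. Of the 44 genes 5 are described here, and of the 27 genes 4, Cd300c being the one outside. On the lower side 14 genes passed and 8 of them differed by less than 1 in ZnF1-/-; Steap4 and Lrrc32 were among the 8 genes, Reln only among the 14, and Plxdc1 at -1.99 lay just outside.

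Genes with the most similar profile were found by the Euclidean distance of the log2 differences in the 6 libraries from the mean profile of the higher or the lower genes. Nearest to the higher genes were Nrp2 (distance 0.78), Rnd3 (0.94), Prox1 (0.97), Pls3 (1.24) and Nrp1 (1.36), against 0.48 to 1.65 for the 5 genes themselves. Nrp2, a co-receptor for semaphorins and vascular growth factors, had 9.3 and 8.3 RPKM in ZnF4-/-, 0.1 and 0.3 in ZnF1-/-, and 0.1 and 0.1 in wild type. Its relative Nrp1 had 4.4 and 4.3 RPKM in ZnF4-/-, 0.4 and 1.1 in ZnF1-/-, and 0.4 and 0.3 in wild type. Prox1, a homeobox gene of lymphatic endothelium, had 3.4 and 3.6 RPKM in ZnF4-/- and was listed at 0 in the other 4 libraries. All 5 had their highest values in the ZnF4-/- libraries, as the measure requires. For Nrp2, Prox1, Pls3 and Nrp1 the ZnF1-/- and the wild-type mean were each below 1 RPKM. These genes thus passed the filter on low values only through ZnF4-/-, and nothing is read from their likeness.

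Nearest to the lower genes were Rag1 (0.71), Oasl1 (0.84), BC064078 (0.85), D8Ertd82e (0.96) and Dtx1 (0.96), against 0.87 to 1.77 for the 4 genes themselves. Rag1, which cuts antigen receptor genes during their rearrangement, had 4.4 and 2.2 RPKM in ZnF4-/-, 12.3 and 9.2 in ZnF1-/-, and 14.5 and 17.6 in wild type. Dtx1, a regulator of Notch signalling, had 5.6 and 6.7 RPKM in ZnF4-/-, 18.3 and 13.8 in ZnF1-/-, and 22.6 and 22.5 in wild type. In both genes ZnF1-/- lay between ZnF4-/- and wild type without overlap.

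Relatives, ligands and partners of the 9 genes formed 8 lists of 155 genes, of which 153 were in the table and 87 were tested. In ZnF4-/- against wild type 3 rose and 1 fell (limma, Benjamini-Hochberg), 4.6% against 3.2% of all tested genes. In ZnF1-/- against wild type 1 was called, Eng, against 0.271% of all tested genes; it passed the filter on low values only through ZnF1-/-, so nothing is read from that count. Between the mutants 1 was higher and 4 were lower in ZnF4-/-, where 4.78% of all tested genes were called. Eng was among the 4 lower genes, so nothing is read from that count either. The median log2 difference of the lists was -0.11 in ZnF4-/- and 0.03 in ZnF1-/-.

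App, the amyloid precursor protein that Mint1 binds, had the largest rise among the called genes of these lists on the log2 scale. It had 15.4 and 14.9 RPKM in ZnF4-/-, 4.0 and 12.3 RPKM in ZnF1-/-, and 2.2 and 2.7 RPKM in wild type. The log2 difference was 2.41 in ZnF4-/- (SE 0.42, adjusted p = 0.0299) and 1.37 in ZnF1-/- (adjusted p = 0.258), and the mutants did not pass against each other (1.04, adjusted p = 0.221). Its higher ZnF1-/- value was in replicate 2, the library with the most granulocyte RNA; the part of that RNA in the result was not tested. App was the single gene called of 11 tested Mint partners, and it lost the call without any one ZnF4-/- or wild-type library (adjusted p = 0.189 to 0.284).

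Serpinf1, which encodes PEDF, the ligand of Plxdc1, rose in ZnF4-/-, in which Plxdc1 was low. It had 5.1 and 4.7 RPKM in ZnF4-/-, 3.2 and 5.5 RPKM in ZnF1-/-, and 1.0 and 1.5 RPKM in wild type (log2 difference in ZnF4-/- 1.64, SE 0.27, adjusted p = 0.0256). The mutants overlapped, and ZnF1-/- did not pass against wild type (1.44, adjusted p = 0.112). Plxdc2, the close relative of Plxdc1, stayed at or below 0.2 RPKM. Without any one ZnF4-/- or wild-type library Serpinf1 lost the call (adjusted p = 0.122 to 0.247).

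In the GARP and TGF-beta list of 16 tested genes, Smad3, a transducer of TGF-beta signals, fell. It had 4.9 and 6.0 RPKM in ZnF4-/-, 6.9 and 7.8 RPKM in ZnF1-/-, and 11.1 and 10.7 RPKM in wild type (log2 difference in ZnF4-/- -0.94, SE 0.16, adjusted p = 0.0242). Its call was lost without any one ZnF4-/- or wild-type library (adjusted p = 0.129 to 0.181). Eng, a TGF-beta co-receptor, had 0.6 and 0.6 RPKM in ZnF4-/-, 4.3 and 4.9 RPKM in ZnF1-/-, and 0.8 and 1.1 RPKM in wild type. Its mean over the 4 libraries outside ZnF1-/- was 0.775 RPKM, so it was tested only because of ZnF1-/-, where it is high, and its tests count for little. The log2 difference was 1.82 in ZnF1-/- against wild type (adjusted p = 0.0397; 0.0581 with a replicate block) and -2.21 in ZnF4-/- against ZnF1-/- (adjusted p = 0.00412). The call of Eng against wild type was lost without ZnF1-/- replicate 2 or either wild-type or ZnF4-/- library. With a ZnF1-/- or wild-type library left out the log2 difference was 1.67 to 1.97. Its call between the mutants was lost without ZnF4-/- replicate 1 or 2 (log2 difference -2.21 in each). Tgfb1, the cytokine that GARP holds, had 130.3 and 86.0 RPKM in ZnF4-/-, 140.5 and 125.9 RPKM in ZnF1-/-, and 138.9 and 149.3 RPKM in wild type, and Lrrc33, a GARP relative that holds it on myeloid cells, lay between 54.2 and 69.7 RPKM in all libraries. The TGF-beta-activating integrin chains Itgb6 and Itgb8 were listed at 0. Tgfb2, another TGF-beta, averaged 0.95 RPKM over the 6 libraries and was not tested; it had 3.4 and 2.1 RPKM in ZnF4-/-, was listed at 0 in ZnF1-/-, and had 0.1 and 0.1 RPKM in wild type, a log2 difference from wild type of 2.41 in ZnF4-/-.

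Of 12 tested genes of the CD300 family and its adaptors, Fcamr, an Fc receptor for IgM and IgA, rose to 8.3 and 10.2 RPKM in ZnF4-/-, against 3.9 and 6.8 RPKM in ZnF1-/- and 2.7 and 3.9 RPKM in wild type (log2 difference in ZnF4-/- 1.37, SE 0.28, adjusted p = 0.0472). It lost the call without any one ZnF4-/- or wild-type library (adjusted p = 0.168 to 0.347). Cd300lb and Cd300ld, beside Cd300c on chromosome 11, differed from wild type by -0.08 and -0.02 on the log2 scale in ZnF4-/-. Between the mutants the adaptors Tyrobp (-1.93, adjusted p = 0.0331, limma) and Hcst (-1.27, adjusted p = 0.0185, limma) were lower in ZnF4-/-. Tyrobp had 26.8 and 27.1 RPKM in ZnF4-/-, 64.2 and 168.4 in ZnF1-/-, and 52.2 and 54.1 in wild type. Its higher ZnF1-/- value was in replicate 2, the library with the most granulocyte RNA, and the part of that RNA was not tested. Hcst had 3.2 and 4.6 RPKM in ZnF4-/-, 10.7 and 9.3 in ZnF1-/-, and 8.7 and 6.9 in wild type. Tyrobp lost its call without either ZnF4-/- or wild-type library, and Hcst without either ZnF4-/- library. With a mutant library left out the log2 difference was -2.62 to -1.24 for Tyrobp and -1.5 to -1.04 for Hcst.

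No gene was called against wild type in the other 4 lists. Of 7 tested MS4A-like genes 0 were called in ZnF4-/- (2 at an unadjusted p under 0.05, limma). Ms4a4b was lower in ZnF4-/- than in ZnF1-/- (-1.27, limma, adjusted p = 0.0411, and 0.057 with a replicate block). It lost the call without ZnF1-/- replicate 2 or either ZnF4-/- or wild-type library. With a mutant library left out the log2 difference was -1.48 to -1.06. Of 9 tested CYP4F and leukotriene genes 0 were called (4 at an unadjusted p under 0.05): Cyp4f18, which acts on leukotriene B4, had 51.5 and 66.1 RPKM in ZnF4-/-, 78.9 and 67.2 RPKM in ZnF1-/-, and 85.6 and 64.0 RPKM in wild type. Ptgr1 (log2 difference -0.74, adjusted p = 0.0763) and Pla2g4a (1.18, adjusted p = 0.0976), which releases arachidonic acid, had the smallest p of that list. Of 14 tested STEAP and iron genes 0 were called (2 at an unadjusted p under 0.05); Steap1 and Steap2 were listed at 0, and Steap3 had 1.9 and 1.7 RPKM in ZnF4-/-, 1.5 and 2.8 RPKM in ZnF1-/-, and 2.9 and 2.9 RPKM in wild type. Fbxl5, an iron sensor (-0.57, adjusted p = 0.0722), and the ferritin chain Fth1 (-0.46, adjusted p = 0.177) came closest. Of 15 tested Reelin pathway genes 0 were called against wild type (4 at an unadjusted p under 0.05), with Itgb1 at 0.74 (adjusted p = 0.0577) and Cdk5r1 at -0.93 (adjusted p = 0.0753). The reelin receptor Vldlr and the adaptor Dab1 were listed at 0, and the other receptor, Lrp8, lay between 0.2 and 1.2 RPKM. Pafah1b3 was higher in ZnF4-/- than in ZnF1-/- (1.03, adjusted p = 0.0225; 0.073 to 0.18 without ZnF1-/- replicate 2 or either ZnF4-/- library).

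**Figure D4:**
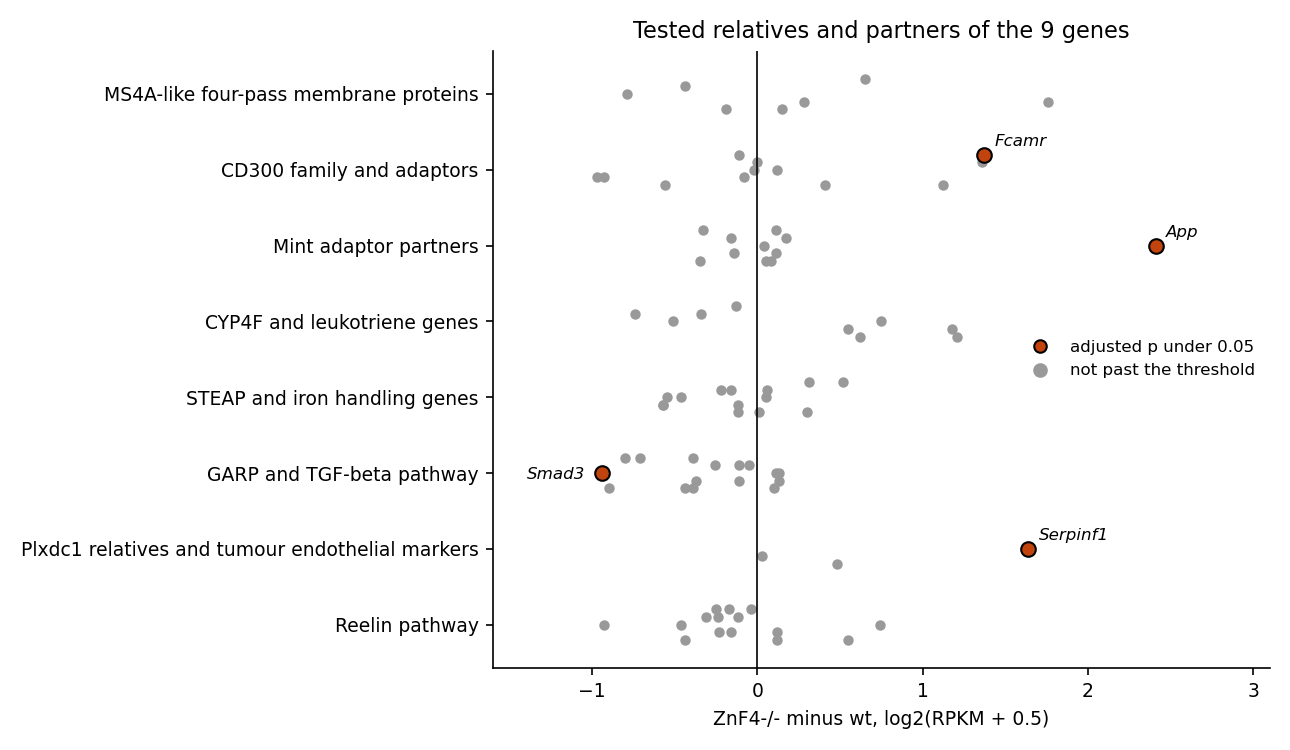
Difference of ZnF4-/- from wild type on the log2(RPKM + 0.5) scale for the tested relatives and partners, by list; 1 point per gene, spread vertically for legibility. The named points, App (2.41), Serpinf1 (1.64), Fcamr (1.37) and Smad3 (-0.94), passed an adjusted p of 0.05.

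The neighbours of the 9 genes, up to 3 named genes on each side, numbered 48, some of them relatives in the lists above, and 22 were tested. In ZnF4-/- against wild type 1 rose and 0 fell, 4.55% against 3.2% of all tested genes, and in ZnF1-/- 0 were called (6 at an unadjusted p under 0.05, limma). Ptar1, next to Apba1 on chromosome 19, differed from wild type by 0.31 (adjusted p = 0.314).

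Of the 8 tested immediate neighbours 0 were called against wild type in ZnF4-/- (1 at an unadjusted p under 0.05, limma). Gimap3, a GTPase gene of lymphocytes next to Tmem176b, had 23.4 and 36.5 RPKM in ZnF4-/-, 71.9 and 75.8 RPKM in ZnF1-/-, and 54.7 and 37.5 RPKM in wild type. It differed from wild type by -0.62 in ZnF4-/- (adjusted p = 0.242) and was lower there than in ZnF1-/- (-1.32, adjusted p = 0.0269; 0.0697 to 0.187 without ZnF1-/- replicate 2 or either ZnF4-/- library). Abp1, on the other side of the pair, was listed at 0. Sri and 2210018M11Rik, Arl5c and Orc5, beside Steap4, Lrrc32, Plxdc1 and Reln, differed by -0.13, -0.03, -0.34 and 0.16 on the log2 scale.

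Several of the 9 genes are known from other blood or vessel cells, so markers of those cells are given beside them. The summed RPKM of 20 granulocyte and monocyte markers was 1932 and 2136 in ZnF4-/-, 1576 and 8543 in ZnF1-/-, and 513.5 and 814.0 in wild type, and 17 of the 20 markers were higher in both ZnF4-/- than in both wild-type libraries, against 23.1% of all tested genes. None of the 19 tested was called (8 at an unadjusted p under 0.05, limma). The highest sum was that of ZnF1-/- replicate 2, where Tmem176b stood at 4.9 RPKM, Tmem176a at 2.1 and Cd300c at 2.9. In ZnF1-/- replicate 1 they stood lower, at 2.1, 1.0 and 1.6 RPKM. In the ZnF4-/- libraries these genes had at least 45.4, 27.8 and 8.3 RPKM. Apba1 and Cyp4f16 were also higher in ZnF1-/- replicate 2 (1.0 and 1.4 RPKM) than in ZnF1-/- replicate 1 (0.4 and 0.9 RPKM). The part of granulocyte and monocyte RNA in these values was not tested. Markers of mast cells and basophils summed to 20.7 and 26.7 RPKM in ZnF4-/-, 14.5 and 93.5 in ZnF1-/-, and 2.8 and 3.9 in wild type.

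The 12 dendritic cell markers summed to 76.9 and 100.4 RPKM in ZnF4-/-, 97.2 and 82.9 in ZnF1-/-, and 94.0 and 96.4 in wild type, most of it Ccr7, which B cells also express. Of 5 tested, 1 was called in ZnF4-/- against wild type, Cd209a (log2 difference 2.18, limma, adjusted p = 0.00832). It had 3.6 and 3.9 RPKM in ZnF4-/-, against 1.2 and 1.5 RPKM in ZnF1-/- and 0.3 and 0.6 RPKM in wild type. Its call was lost without any one ZnF4-/- or wild-type library, with the log2 difference at 1.95 to 2.41. Cd209a passed the filter on low values only through ZnF4-/- (mean 0.9 RPKM over the other 4 libraries), so it was tested because it is high there. Cd209d, also on the list, went the other way between the mutants. It had 0.1 and 0.0 RPKM in ZnF4-/-, 3.4 and 6.4 in ZnF1-/-, and 0.2 and 0.5 in wild type, and was tested because it is high in ZnF1-/-. Of the 12 markers 2 were higher and 2 lower in both ZnF4-/- than in both wild-type libraries, against 23.1% and 27.2% of all tested genes. Zbtb46, too low to be tested, had 0.6 and 1.4 RPKM in ZnF4-/-, 0.3 and 0.3 RPKM in ZnF1-/-, and 0.1 and 0.1 RPKM in wild type. The integrin Itgax, also not tested, was listed at 0 in both ZnF4-/- libraries, had 0.3 and 1.0 RPKM in ZnF1-/-, and 0.6 and 0.6 RPKM in wild type. Macrophage markers summed to 32.6 and 19.2 RPKM in ZnF4-/-, 50.5 and 39.4 in ZnF1-/-, and 38.4 and 11.7 in wild type.

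For the lower genes, the T and NK cell markers summed to 110.4 and 124.1 RPKM in ZnF4-/-, 145.3 and 120.5 in ZnF1-/-, and 145.6 and 170.3 in wild type, most of it Cd2. Foxp3, the factor of regulatory T cells, had 3.1 and 3.1 RPKM in ZnF4-/-, 3.2 and 3.9 in ZnF1-/-, and 3.2 and 2.9 in wild type. Cd3e lay between 0.2 and 0.7 RPKM in all libraries. Megakaryocyte and platelet markers summed to 19.2 and 19.0 RPKM in ZnF4-/-, 15.6 and 19.8 in ZnF1-/-, and 10.4 and 15.1 in wild type, mostly Itgb3, and Gp6 was listed at 0. Endothelial and stromal markers summed to 2.9 and 6.6 RPKM in ZnF4-/-, 3.8 and 2.8 in ZnF1-/-, and 2.3 and 5.1 in wild type, with Tek and Emcn at 0. Erythroid markers summed to 250.9 and 374.2 RPKM in ZnF4-/-, 151.3 and 952.3 in ZnF1-/-, and 238.3 and 251.7 in wild type, with 0 of 10 tested called in ZnF4-/- (0 at an unadjusted p under 0.05, limma).

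Markers of earlier B cell stages also differed. Of 11 tested pro-B and pre-B markers, Igll1, Vpreb1 and Kit rose and Rag1 and Bst1 fell in ZnF4-/- against wild type (adjusted p = 0.00549 to 0.0361), where 3.2% of all tested genes were called. Igll1, part of the surrogate light chain of pre-B cells, had 130.4 and 121.3 RPKM in ZnF4-/-, 18.5 and 28.6 in ZnF1-/-, and 5.7 and 13.7 in wild type. Igll1 lost its call without ZnF4-/- replicate 1 or 2 (adjusted p up to 0.123), and the other 4 genes lost theirs without any one ZnF4-/- or wild-type library (0.065 to 0.314). The list summed to 215.2 and 182.3 RPKM in ZnF4-/-, 94.0 and 108.0 in ZnF1-/-, and 81.4 and 106.5 in wild type, with Igll1 the largest part in ZnF4-/-. Most members went the other way: of the 12 markers 3 were higher and 7 lower in both ZnF4-/- than in both wild-type libraries, against 23.1% and 27.2% of all tested genes, and the median log2 difference of those tested was -0.57. Of 11 tested B cell markers 0 were called in ZnF4-/- (2 at an unadjusted p under 0.05, limma). The part of these other cells and stages in the values of the 9 genes was not tested.

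**Figure D5:**
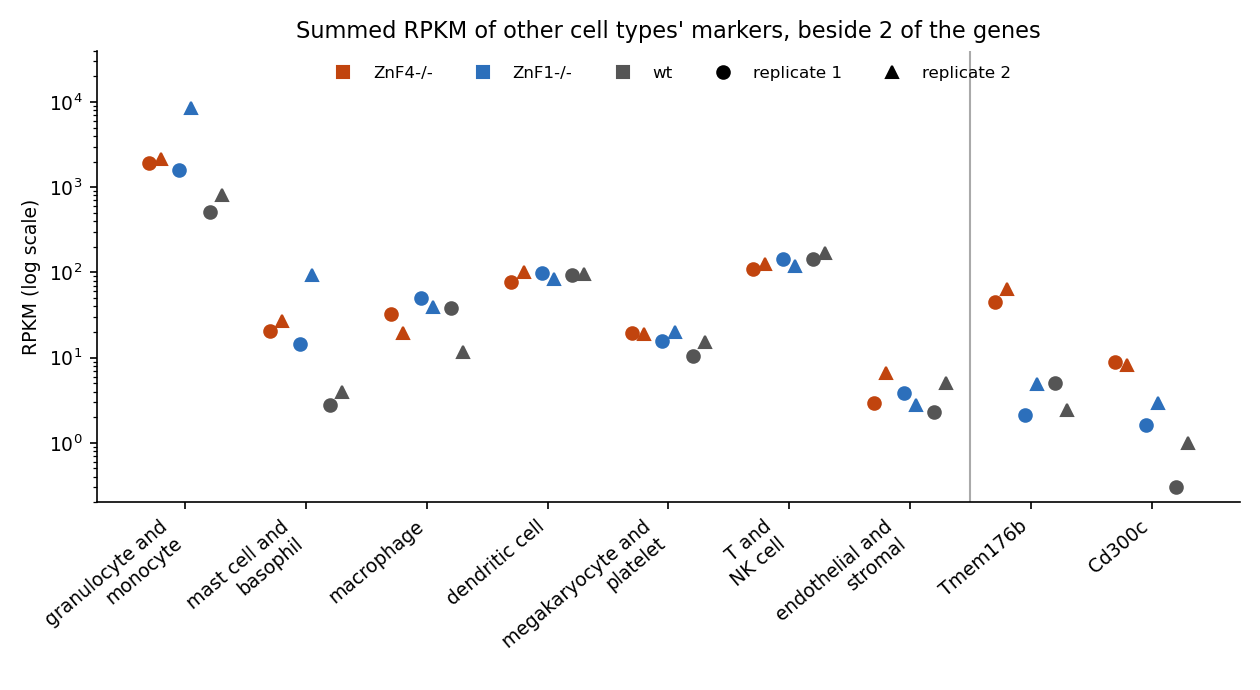
Summed RPKM of marker lists of 7 other cell types and, right of the line, RPKM of Tmem176b and Cd300c, on a log axis in the 2 ZnF4-/-, 2 ZnF1-/- and 2 wild-type libraries. The granulocyte and the mast cell sums are highest in ZnF1-/- replicate 2 (8543 and 93.5), and Tmem176b and Cd300c are highest in ZnF4-/-.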

How the data were processed

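Libraries of polyA-selected RNA were made with an Illumina TruSeq kit, per the labels. The authors deposited one table of RPKM for 26531 RefSeq transcripts with values; per the submitters' processing notes the build was mm9 and the tools included bedtools and TopHat. Their versions, the depth and the strand are not given in the sources used here. All tests used the log2(RPKM + 0.5) scale, so differences understate changes of low genes.

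For each of 22098 names the row with the highest mean was kept, and 10322 genes with a mean of at least 1 RPKM were fitted in one limma 3.58.1 model (R 4.3.3; lmFit, eBayes with trend, 1 coefficient per genotype, 6 libraries, 3 residual degrees of freedom, two-sided, Benjamini-Hochberg over all tested genes, called under 0.05). The fit was tested on simulated data. Sums, ranks and distances were computed in Python 3.11.15 with pandas 2.3.3.

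The 9 genes and all lists were chosen with earlier results of these data known. Named beside the 9 genes were Ikzf1, the called genes of each list or those with the smallest p, called and immediate neighbours, and the 5 nearest genes of each profile; other genes named by value, such as Tgfb1, Tgfb2, Lrp8 or Cyp4f18, were chosen after their values were seen. One gene that the rule takes is not reported here. Promoter windows and gene order come from RefSeq, build GRCm38.p6, which differs from the build of the table; no coordinate was carried between them. Alternatives covered the pseudocount, the filter, quantile normalization, a term for sex (from Y-linked RNA), a replicate block, fits of 2 genotypes and leaving out each library.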

Additional observations from a re-analysis of the deposited data

How the results depend on the processing

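The log2 difference of each of the 9 genes between ZnF4-/- and wild type kept its sign under every alternative in which the gene was fitted. The choice of the genes by this difference largely fixed that, so nothing is read from it. A replicate block, a fit of 2 genotypes or leaving out a ZnF1-/- library cannot move the difference (3.53 in each for Tmem176a). Lrrc32 dropped out at a minimum mean of 3 RPKM. The ranges were 3.01 to 4.05 for Tmem176a, 3.27 to 4.22 for Tmem176b and 3.11 to 4.59 for Apba1, and for Steap4, Lrrc32 and Plxdc1 they were -3.56 to -2.40, -4.11 to -1.99 and -2.42 to -1.64. In ZnF1-/- against wild type the signs of Tmem176a, Tmem176b and Plxdc1 were not kept under all alternatives. The count of called genes in ZnF4-/- against wild type was 330. It was 171 with a term for sex, 594 when only those 2 genotypes were fitted, 11 and 3 with wild-type replicate 1 or 2 left out, 591 and 585 without ZnF1-/- replicate 1 and 2, and 0 without either ZnF4-/- replicate (1551 and 1219 at an unadjusted p under 0.05, limma). The count in ZnF1-/- against wild type, 28, was 104 with no filter, 13 after quantile normalization, 0 with a term for sex or with 2 genotypes (863 and 1053 at an unadjusted p under 0.05, limma), and between 0 and 512 with a library left out (512 with ZnF1-/- replicate 1 omitted, 7 with ZnF1-/- replicate 2 omitted, 0 with any other; 609 to 1060 of those at an unadjusted p under 0.05). Between the mutants the count was 493, against 327 with no filter, 249 with 2 genotypes and 0 to 814 with a library left out (the 0, in limma, with ZnF4-/- replicate 1 omitted, where 1689 genes had an unadjusted p under 0.05; 814 with ZnF1-/- replicate 1 omitted). A fit without a library assumes that the lone library left in its genotype varies like the others. Of the partner genes 4 were called in ZnF4-/- against wild type, against 1 with no filter or with a term for sex, 14 with 2 genotypes and 0 to 14 with a library left out. The count of 1 neighbour was 0 with no filter or after quantile normalization, 3 with 2 genotypes and 0 to 3 with a library left out. With a term for sex App (adjusted p = 0.074), Fcamr (0.102), Serpinf1 (0.0851), Kit (0.0851), Eng in ZnF1-/- (0.15) and Ms4a4b between the mutants (0.0555) lost their calls, and with no filter the calls of all genes named with one were lost except that of Eng between the mutants (adjusted p = 0.0447). Replicate numbers are shared across genotypes, but nothing in the labels pairs the libraries: with a replicate block the 5 counts were 327, 27, 529, 5 and 1, and the deviations of same-numbered libraries correlated with r = -0.033 (ZnF4-/- and wild type), 0.28 (ZnF1-/- and wild type) and 0.208 (the mutants). The unknown depth and the rounding to 0.1 RPKM limit ratios of values near 0.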
